A study of Mus musculus with 16 samples.

Results

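The Hippo pathway effectors described here are 10 genes: the coactivators *Yap1* and *Wwtr1*, which encodes TAZ, the DNA-binding partners *Tead1*, *Tead2*, *Tead3* and *Tead4*, the angiomotin-like genes *Amotl1* and *Amotl2*, the LIM-domain gene *Ajuba* and the kinase gene *Lats2*. They were chosen by symbol with earlier results of these data known, and all 10 were found among the 54838 genes of the count table. RNA was sequenced from spleens of C57BL/6 mice in 16 samples, 8 of whole spleen and 8 of a size-selected fraction, whose source the labels name as spleen glia, the support cells of nerve fibres. The size-selected fraction is what a strainer held back after the minced spleen had been digested with enzymes and its red cells lysed, so it is a fraction by size and was not sorted for a marker. Each of 8 numbers gave 1 sample of each kind, 4 numbers from males and 4 from females. No genotype, treatment or age is given, and nothing says that the numbers are separate animals, so the p-values measure the spread between these samples.

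In the Hippo pathway, the kinases MST1 and MST2 activate LATS1 and LATS2, which phosphorylate YAP and TAZ and so keep them in the cytoplasm. When the kinases are inactive, YAP and TAZ enter the nucleus and switch on genes through the TEAD proteins. Angiomotins and junctional proteins hold YAP and TAZ at the cell cortex, Ajuba-type LIM proteins inhibit LATS kinases, and the pathway is known mostly from adherent cells such as epithelium, fibroblasts, endothelium and Schwann cells, which are minority cell types in spleen.

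Among the 10 members, 9 (all except *Lats2*) were higher in every size-selected sample than in every whole spleen sample. Of the 14510 genes that passed the count filter, 23.3% were separated upwards in this way, and so were 8 of the 9 members among them. Counts were compared with edgeR's quasi-likelihood test without using the pairing by number, and p-values were adjusted over all genes by the Benjamini-Hochberg method. CPM are counts scaled to the size of the library. In that test 9 members passed the filter and 9 had a higher call for the size-selected fraction, as did 37.5% of all genes tested. *Tead4* did not pass the filter. Of the 9 that passed, 7 reached the level that the filter asks for in fewer than 8 whole spleen samples, so they entered the test through the size-selected samples, and only *Wwtr1* and *Lats2* reached it in all 8 samples of both groups. In such bulk samples, more cells of a type and more RNA per cell cannot be told apart. The labels do not say how whole spleen was prepared, so effects of handling cannot be told apart from these either.

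The markers of several cell types rose in the same fraction. All 5 smooth muscle, all 7 fibroblast, all 6 endothelial and all 5 mesothelial markers listed were called higher, and so were 8 of 10 glia markers, while *Sox10* and *Foxd3* did not pass the filter. Of these markers, 2 smooth muscle, 5 fibroblast, 2 endothelial, 5 mesothelial and 8 glia genes were below the filter's level in some whole spleen samples. The summed fibroblast markers lay between 1061 and 3664 CPM after size selection and between 5.02 and 57.6 CPM in whole spleen. For smooth muscle the ranges were 764.6 to 3638 and 8.36 to 69.2 CPM, for endothelium 536.5 to 1358 and 72.8 to 168.8 CPM, for mesothelium 19.6 to 173.1 and 0.381 to 3.02 CPM, and for glia 78.2 to 578.2 and 2.44 to 9.55 CPM. B cell markers went the other way, from 3581 to 5136 CPM in whole spleen to 705.1 to 2587 CPM in the size-selected samples. The T cell, neutrophil and erythroid sums also had lower means after size selection. Macrophage markers rose instead, from 564 to 1078 CPM in whole spleen to 1161 to 2678 CPM after size selection. Megakaryocyte markers lay between 31.4 and 117.3 CPM in whole spleen and between 62.3 and 403.7 CPM after size selection. *Sox10*, which defines Schwann cells and other glia, was present in all size-selected samples at a median of 3.75 CPM. The part of each cell type in the values of the members was not tested. Library totals ran from 13119992 to 19944440 estimated counts in the size-selected and from 12153770 to 16282454 in the whole spleen samples.

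The stretches upstream of the member genes were read for the core of the TEAD binding motif, because TEAD proteins are among the members. RefSeq start sites gave 12 promoters for 8 of the 10 members on GRCm38.p6. The letters CATTCC or their reverse complement GGAATG stood within 250 bases upstream of a start in 5 of these 8 genes, *Yap1*, *Wwtr1*, *Tead3*, *Amotl2* and *Ajuba*. They were in 12.6% of the upstream windows of the same length at all 32851 promoters, and 14.4% of 27025 genes had at least 1 such window. A match shows the letters only, and binding was not measured. A relation of the matches to the difference between fractions was not tested. In *Yap1* (chr9:8004597-8004846, minus strand) the match began 141 bases upstream of the start, in *Wwtr1* (chr3:57575911-57576160, minus strand) 136 bases, and in *Amotl2* (chr9:102717554-102717803, plus strand) 65 bases. *Tead3* (chr17:28350601-28350850, minus strand) had a pair of matches at 123 and 114 bases, and *Ajuba* (chr14:54577662-54577911, minus strand) had a pair at 186 and 164 bases. These 5 windows of 250 bases are printed 5′ to 3′ along the gene, ending at the base before the start, with the motif in capitals.
*Yap1*: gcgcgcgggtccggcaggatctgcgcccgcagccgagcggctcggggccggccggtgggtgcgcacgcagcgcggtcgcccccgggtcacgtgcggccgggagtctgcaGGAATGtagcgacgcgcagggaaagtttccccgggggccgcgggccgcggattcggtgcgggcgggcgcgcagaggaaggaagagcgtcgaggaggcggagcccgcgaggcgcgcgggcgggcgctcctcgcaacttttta
*Wwtr1*: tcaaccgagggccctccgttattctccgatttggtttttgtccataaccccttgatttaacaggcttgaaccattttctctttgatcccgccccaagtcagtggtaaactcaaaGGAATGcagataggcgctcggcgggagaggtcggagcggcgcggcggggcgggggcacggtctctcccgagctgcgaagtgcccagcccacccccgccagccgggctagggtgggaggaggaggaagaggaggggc
*Tead3*: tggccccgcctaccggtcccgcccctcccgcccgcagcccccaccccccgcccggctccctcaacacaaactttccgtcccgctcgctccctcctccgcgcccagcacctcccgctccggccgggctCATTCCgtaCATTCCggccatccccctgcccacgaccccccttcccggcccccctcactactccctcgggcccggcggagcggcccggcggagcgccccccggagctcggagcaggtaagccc
*Amotl2*: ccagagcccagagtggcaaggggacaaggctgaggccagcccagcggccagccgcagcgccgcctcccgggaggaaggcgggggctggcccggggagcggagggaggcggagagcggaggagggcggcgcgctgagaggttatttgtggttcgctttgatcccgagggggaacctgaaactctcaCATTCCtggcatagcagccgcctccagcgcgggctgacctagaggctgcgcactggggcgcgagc
*Ajuba*: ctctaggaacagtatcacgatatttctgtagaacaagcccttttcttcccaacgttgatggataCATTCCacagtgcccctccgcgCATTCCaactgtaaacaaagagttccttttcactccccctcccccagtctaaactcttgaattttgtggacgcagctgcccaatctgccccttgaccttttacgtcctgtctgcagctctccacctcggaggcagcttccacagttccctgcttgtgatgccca

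The windows of *Tead2*, *Amotl1* and *Lats2* held no match upstream. A start used by RefSeq need not be the one used in spleen. *Wwtr1*, *Tead3* and *Lats2* have more than 1 start, which gives a match more windows to fall in.

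**Figure D1:**
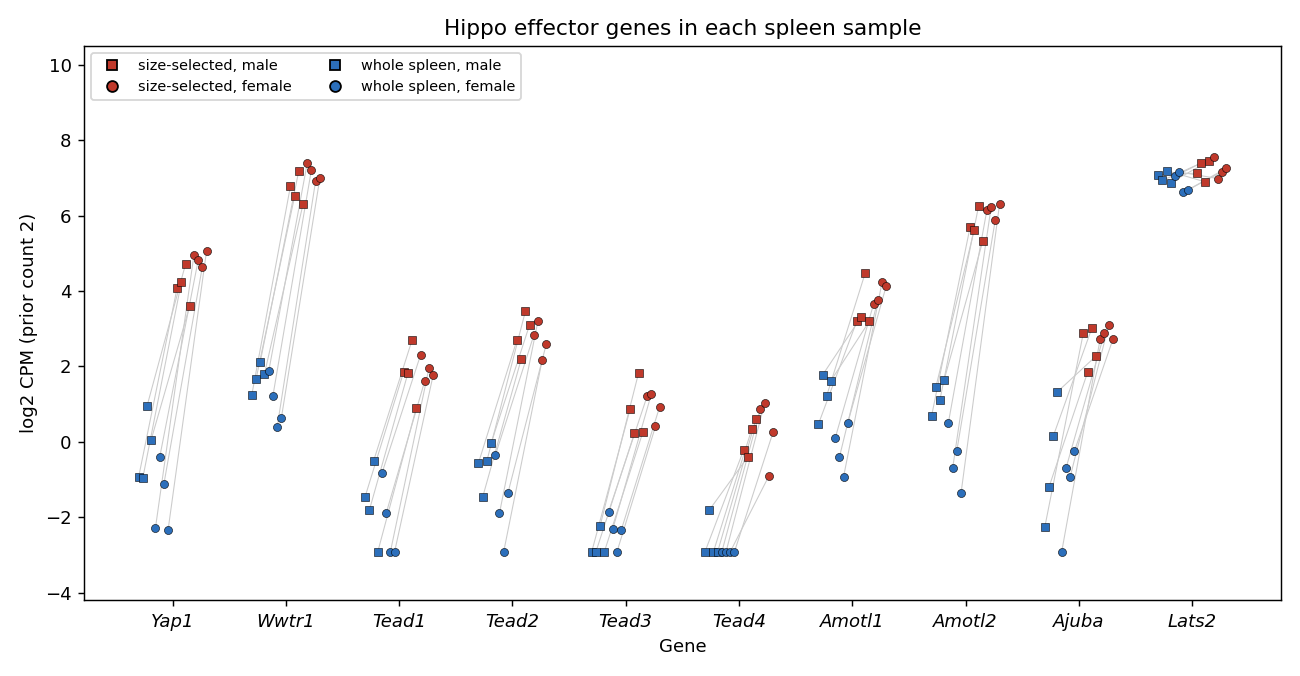
Each point is 1 sample, with the gene on the x axis and its log2 CPM (prior count 2) on the y axis; red is size-selected, blue is whole spleen, squares are males, circles are females, and grey lines join samples of the same number. For 9 genes the red points lie above all blue points, and for *Lats2* the 2 groups overlap.

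*Yap1* and *Wwtr1*, the coactivators that carry the output of the pathway, rose together. *Wwtr1* (ENSMUSG00000027803, chromosome 3, 57455649 to 57575910 on GRCm38) had 78.9 CPM in the lowest, 124.3 in the median and 167.8 in the highest size-selected sample, against 1.18, 2.65 and 4.24 CPM in whole spleen. The lowest size-selected sample thus stood far above the highest whole spleen sample, and the means were 123.8 ± 30.2 and 2.65 ± 1.07 CPM (SD, n = 8 each). The log2 fold change was 5.55 (SE 0.25, edgeR adjusted p = 1.59e-11). *Yap1* (ENSMUSG00000053110, chromosome 9, 7931999 to 8004596) had 12.04, 25.5 and 33.3 CPM (lowest, median, highest) after size selection, against 0.0642, 0.385 and 1.80 CPM in whole spleen. The groups did not overlap, and whole spleen sample 427 was the highest of its group. Its log2 fold change was 5.40 (SE 0.43, edgeR adjusted p = 3.59e-09). All 8 numbered pairs went up for both genes, by 3.54 to 7.41 on the log2 CPM scale for *Yap1* and by 4.50 to 6.54 for *Wwtr1*.

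Compared per kilobase of exon, *Wwtr1* was the more abundant of the 2 coactivator transcripts in both fractions. In the size-selected samples it stood at 25.9 ± 6.32 CPM per kilobase and *Yap1* at 2.57 ± 0.794 (SD, n = 8). The size of this lead depended on the length used. With the longest transcript of each gene, *Wwtr1* stood at 26.4 and *Yap1* at 4.51 CPM per kilobase. The mean TPM in the authors' deposited table were 35.8 and 8.52. Per kilobase of exon, *Wwtr1* made up 91.05 ± 1.47% of the sum of both in the size-selected samples (SD, n = 8). In whole spleen it made up 90.9 ± 5.78% (SD, n = 8). The difference of 0.169 percentage points was within the spread (exact two-sided permutation p = 0.937, adjusted p = 0.991 over 5 shares tested). The share ran from 88.1% to 92.7% in the size-selected samples and from 82.1% to 99.0% in whole spleen, where each sample held only 23 to 74 counts of both genes.

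The 4 TEAD genes, which encode the transcription factors that bring YAP and TAZ to DNA, were low in whole spleen and all rose where they could be tested. *Tead2* (ENSMUSG00000030796, chromosome 7, 45215753 to 45233644) had 4.39, 6.67 and 10.9 CPM (lowest, median, highest) after size selection, against 0, 0.401 and 0.841 CPM in whole spleen. *Tead1* (ENSMUSG00000055320, chromosome 7, 112679318 to 112906807) had 1.74, 3.44 and 6.37 CPM against 0, 0.145 and 0.571 CPM. *Tead3* (ENSMUSG00000002249, chromosome 17, 28331671 to 28350817) had 1.04, 1.75 and 3.44 CPM against 0, 0.0321 and 0.144 CPM. No TEAD gene had overlapping groups, and size-selected sample 427 was the highest for *Tead1*, *Tead2* and *Tead3*. The log2 fold changes were 4.12 for *Tead2* (SE 0.42, edgeR adjusted p = 7.15e-08), 4.28 for *Tead1* (SE 0.53, adjusted p = 1.05e-06) and 5.12 for *Tead3* (SE 0.51, adjusted p = 5.59e-08). Whole spleen listed 0 counts of *Tead1* in 3 samples, of *Tead2* in 1 and of *Tead3* in 4. For *Tead3* the 8 whole spleen libraries held 5 counts in all against 234 in the size-selected libraries, a ratio of 40.4 after scaling with an exact 95% interval of 17.1 to 125.6 that covers counting error only.

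*Tead4* (ENSMUSG00000030353, chromosome 6, 128224288 to 128300823) fell below the count filter. It had 6 to 31 counts per size-selected sample, 0.399 to 1.90 CPM, while in whole spleen 7 samples were at 0 and sample 408 had 2 counts. Summed over samples the counts were 146 and 2, a ratio of 63.0 after scaling with an exact 95% interval of 17.1 to 525.4 for counting error. With no filter beyond a count above 0, the log2 fold change in edgeR was 5.38, with an adjusted p of 1.16e-06.

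*Tead2* was the main TEAD transcript of the size-selected samples. It held 63.2 ± 4.66% of the TEAD sum per kilobase (SD, n = 8; 55.9% to 72.4%), and was the largest share in 8 of 8 samples. *Tead4* followed with 13.0 ± 4.09%, *Tead1* with 12.3 ± 4.402% and *Tead3* with 11.5 ± 2.40% (SD, n = 8 each). The order of these lower 3 depended on the length used: with the longest transcript of each gene *Tead3* came second at 15.6%, and from the mean TPM in the authors' deposited table *Tead1* did at 16.2%. *Tead2* kept 62.1% and 65.8% in those 2 settings.

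In whole spleen *Tead2* held 74.0 ± 18.1% of the sum (SD, n = 7), but only 71 TEAD counts were spread over 8 libraries, and sample 447 had none and was left out. The shares of *Tead1*, *Tead2*, *Tead3* and *Tead4* differed between the fractions by 0.0491, -10.8, 3.76 and 7.003 percentage points (size-selected minus whole spleen). None passed an exact two-sided permutation test, with adjusted p of 0.991 for *Tead1* and 0.401 for the other 3. The *Tead4* result rests on whole spleen sample 408. Without number 408 its difference was 13.2 percentage points, with an adjusted exact permutation p of 0.00583, and *Tead4* was then at 0 in every whole spleen sample used.

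**Figure D2:**
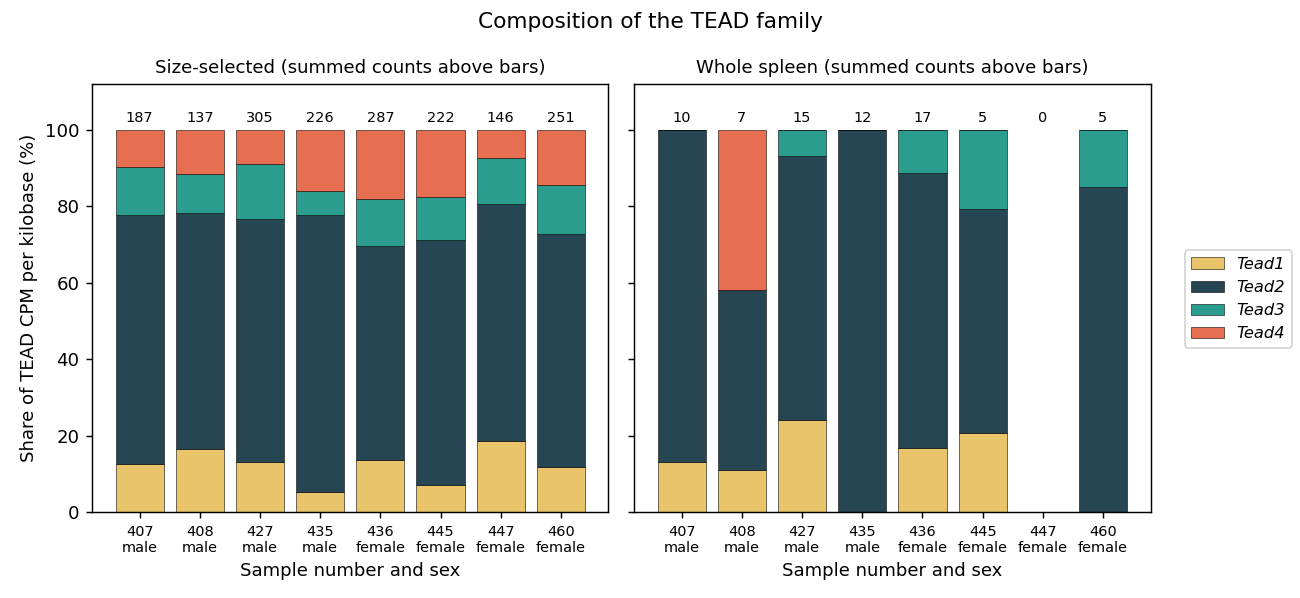
Each bar is 1 sample and splits its TEAD sum (CPM per kilobase of exon) into the shares of the 4 genes in percent; the number above a bar is its summed TEAD count. The size-selected bars rest on 137 to 305 counts and are alike, with *Tead2* the largest part, whereas the whole spleen bars rest on 0 to 17 counts and vary.

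*Amotl2* and *Amotl1* encode angiomotin-like scaffold proteins that bind YAP and TAZ at junctions and actin. *Amotl2* (ENSMUSG00000032531, chromosome 9, 102716672 to 102733418) had 39.8, 65.2 and 78.8 CPM (lowest, median, highest) after size selection, against 0.257, 1.39 and 3.01 CPM in whole spleen. The groups were far apart, and the log2 fold change was 5.41 (SE 0.35, edgeR adjusted p = 4.05e-10). *Amotl1* (ENSMUSG00000013076, chromosome 9, 14541966 to 14645056) had 9.07, 13.0 and 22.2 CPM against 0.392, 1.26 and 3.28 CPM. Its groups did not overlap either, but the log2 fold change was smaller, 3.13 (SE 0.37, edgeR adjusted p = 4.92e-07). Number 427 had the highest size-selected *Amotl1*, and the paired difference ran from 1.53 to 5.16 on the log2 CPM scale.

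*Ajuba* encodes a LIM-domain protein of junctions that binds LATS kinases. *Ajuba* (ENSMUSG00000022178, chromosome 14, 54567472 to 54577558) had 3.46, 6.88 and 8.38 CPM (lowest, median, highest) after size selection, against 0, 0.436 and 2.38 CPM in whole spleen. The groups did not overlap, though the highest whole spleen sample, 435, came close to the lowest size-selected sample, 408. The log2 fold change was 3.27 (SE 0.50, edgeR adjusted p = 1.36e-05), and 3.98 without number 435.

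*Lats2*, the kinase that phosphorylates YAP and TAZ, was abundant in both fractions. *Lats2* (ENSMUSG00000021959, chromosome 14, 57689662 to 57758388) had 118.9, 147.9 and 189.3 CPM (lowest, median, highest) after size selection, against 98.1, 126.9 and 146.4 CPM in whole spleen. The groups overlapped, and 6 of 8 pairs went up. The log2 fold change was 0.28 (SE 0.11, edgeR adjusted p = 0.0291). This call was lost in 9 of 20 other settings, among them the restored counts described below (log2 fold change 0.23, edgeR adjusted p = 0.0725), males alone (0.14, adjusted p = 0.506), females alone (0.36, adjusted p = 0.0612), no count filter, and leaving out number 408, 435, 436, 447 or 460, with adjusted p of 0.0691 to 0.0886 for these 5.

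Levels per length ordered the members differently in the 2 fractions. In the size-selected samples *Wwtr1* came first at 25.9 CPM per kilobase of exon, and *Lats2* followed at 21.7 ± 3.49 (SD, n = 8). *Wwtr1* was above *Lats2* in 6 of 8 samples, and with the longest transcript as length *Lats2* came first, so these 2 were not separated. *Amotl2* stood at 9.95 ± 2.31 and was below *Lats2* and above *Yap1* in 8 of 8 samples. Then came *Yap1* at 2.57, *Ajuba* at 1.78 ± 0.455, *Tead2* at 1.48 ± 0.478 and *Amotl1* at 1.39 ± 0.490 CPM per kilobase (SD, n = 8 each). *Ajuba*, *Tead2* and *Amotl1* lay within each other's spread. *Tead4*, *Tead1* and *Tead3*, at 0.310, 0.273 and 0.273 CPM per kilobase, were the lowest and did not differ beyond their spread. In whole spleen *Lats2* led at 17.9 ± 2.57 CPM per kilobase (SD, n = 8) and *Wwtr1* came next at only 0.555 ± 0.224 (SD, n = 8), with *Lats2* higher in 8 of 8 samples.

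**Figure D3:**
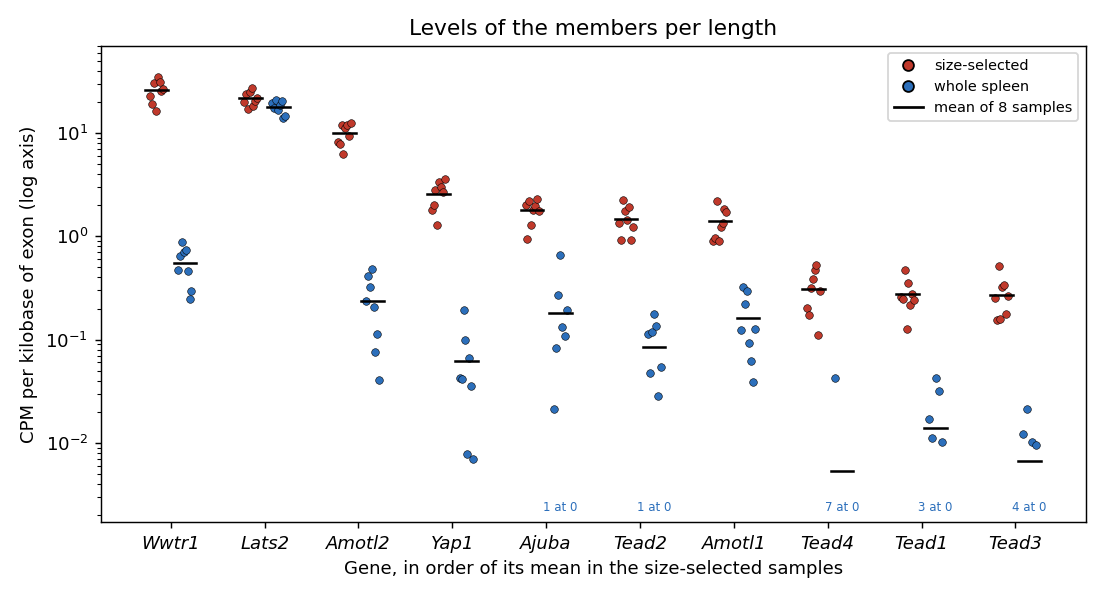
Points are samples and bars are means of 8; the y axis is CPM per kilobase of exon on a log axis, and values of 0, which a log axis cannot show, are counted at the bottom. *Lats2* is at about the same height in both fractions, while *Wwtr1* goes from 0.555 in whole spleen to 25.9 in the size-selected samples.

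The deposited size-selected values of 3898 genes, 4 members among them, are estimated counts multiplied by constants, which the whole spleen values are not. *Yap1* and *Wwtr1* carry a constant of 0.889 to 0.964, depending on the sample, and *Tead3* and *Amotl1* one of 0.770 to 0.858. Dividing the constants out gave restored counts, on which the log2 fold changes were 5.48 for *Yap1*, 5.63 for *Wwtr1*, 5.36 for *Tead3* and 3.37 for *Amotl1*. Each of the 4 was slightly larger than on the deposited values and remained called. The other 6 members carry no constant.

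The authors' deposited table lists 2201 genes whose log2 fold changes start at 3.5, and 7 members are among them. It gives 5.56 for *Wwtr1*, 5.40 for *Yap1*, 5.34 for *Tead1*, 5.06 for *Tead3*, 5.03 for *Tead4*, 4.87 for *Amotl2* and 4.24 for *Tead2*. DESeq2 run on the deposited counts differed from the authors' deposited table by -0.996 for *Tead1*, 0.649 for *Tead4* and 0.522 for *Amotl2*, and by at most 0.295 in size for the other 4 members listed, and 15.6% of the table's genes differed by over 0.5. The cause was not tested.

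Over the 8 size-selected samples, 35 of the 45 pairs of members had a positive Pearson r of log2 CPM. The share of positive pairs among all genes was not computed, so this count cannot show a relation particular to the members. *Lats2* had a negative r with 8 of the 9 other members. The lowest was with *Ajuba* (r = -0.609, exact permutation p = 0.111, adjusted p = 0.251; Spearman rho = -0.667, exact permutation p = 0.0831, adjusted p = 0.385; r = -0.792 without the 2 samples farthest from the median of *Lats2*). For the remaining members, the 2 samples farthest from the median of that member were left out. The r with *Lats2* then ran from -0.268 (*Tead2*) to 0.799 (*Tead1*), and was also positive with *Wwtr1* (0.278) and *Tead4* (0.339). The closest pair was *Yap1* with *Amotl2* (Pearson r = 0.956, exact permutation p = 0.000769, adjusted p = 0.0346; Spearman rho = 0.881, exact permutation p = 0.00724, adjusted p = 0.196). Without the 2 samples farthest from the median of *Yap1*, r was 0.897. *Wwtr1* with *Amotl2* had an r of 0.906 (exact permutation p = 0.00191, adjusted p = 0.0430), a rho of 0.762 (exact permutation p = 0.0368, adjusted p = 0.236) and an r of 0.697 without the 2 farthest samples. These 2 pairs passed the adjustment by r, and none did by rho. *Yap1* with *Wwtr1* had an r of 0.875 (exact permutation p = 0.00446, adjusted p = 0.0670) and a rho of 0.833 (exact permutation p = 0.0154, adjusted p = 0.196), with r at 0.777 without the 2 farthest samples. Values of 1 sample share its library, its scaling and its mixture of cells, and with 4 samples of each sex no relation was computed within a sex. The coefficient of variation between size-selected samples was lowest for *Lats2* (16.04%), followed by *Amotl2* (23.2%), *Wwtr1* (24.4%), *Ajuba* (25.5%), *Yap1* (30.9%), *Tead2* (32.3%), *Amotl1* (35.1%), *Tead1* (36.9%), *Tead3* (43.8%) and *Tead4* (47.1%). For the summed markers it was 27.8% in endothelium, 44.6% in smooth muscle, 47.0% in fibroblasts, 57.2% in mesothelium and 85.0% in glia.

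Among 10104 genes whose mean log2 CPM reached 3, the 3 most like *Yap1* over the 8 size-selected samples were *Cachd1* (r = 0.994), *Phldb1* (r = 0.983) and 1810055G02Rik (r = 0.981). For *Wwtr1* they were *Rtp4* (r = 0.971), *Hdhd2* (r = 0.962) and *Ror2* (r = 0.961), a receptor for WNT5A. With 8 samples and so many genes these values describe rank order and carry no test.

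The other genes of the pathway were taken as lists by role. These lists were also chosen with earlier results of these data known, so their counts of calls are descriptions only. Of 18 core kinase and adaptor genes, all past the filter, 6 were called higher, 3 lower and 9 neither, with a median log2 fold change of 0.01, against 0.05 for all genes tested, of which 37.5% were called higher and 30.4% lower. The largest rises were *Map4k3* (2.92, SE 0.20), *Stk3*, which encodes MST2 (1.92, SE 0.22), *Map4k5* (1.72, SE 0.16) and *Mink1* (1.06, SE 0.20). The falls were *Stk4*, which encodes MST1 (-0.87, SE 0.19), *Map4k1*, a kinase of blood cells (-0.70, SE 0.19), and *Taok1* (-0.61, SE 0.16). *Stk4* and *Taok1* carry a constant below 1, and on restored counts they were still called lower, at -0.62 (edgeR adjusted p = 0.00946) and -0.37 (edgeR adjusted p = 0.0434). *Stk3* stood at 27.4 ± 8.39 CPM after size selection and 7.25 ± 2.24 CPM in whole spleen, and *Stk4* at 170.6 ± 46.9 and 311.3 ± 66.1 CPM (SD, n = 8 each). The 2 MST kinases thus moved in opposite directions. *Lats1*, *Mob1a*, *Mob1b*, *Stk38*, *Stk38l*, *Taok3*, *Map4k2*, *Map4k4* and *Tnik* were not called. *Mob1b* and *Stk38l* carry constants, and on restored counts they were called higher, at log2 fold changes of 0.49 (edgeR adjusted p = 0.00942) and 0.69 (edgeR adjusted p = 0.00144). *Stk38l* was also called with the number as a replicate block (edgeR adjusted p = 0.0469).

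Junctional, polarity and LIM-domain regulators were mostly higher. Of 13 genes, 12 were called higher and none lower, where 37.5% of all genes tested were called higher and 30.4% lower, and *Limd1* among the 12 lost its call on restored counts (edgeR adjusted p = 0.0836 against 0.0279), while *Wwc1* was not called (log2 fold change 0.62, edgeR adjusted p = 0.125). The median log2 fold change was 3.21, and 8 of the 13 were below the filter's level in some whole spleen samples. The largest rises were *Fat1* and *Dchs1*, which encode large cadherins (6.73, SE 0.64, and 4.14, SE 0.34), *Tjp1*, which encodes the tight junction protein ZO-1 (4.54, SE 0.40), and *Wtip*, an Ajuba relative (4.33, SE 0.35). *Fat1* had 2 counts in all of whole spleen against 375, a ratio of 161.9 with an exact 95% counting interval of 44.5 to 1342. *Nf2*, which encodes Merlin, rose from 14.9 ± 3.39 to 34.5 ± 6.56 CPM (SD, n = 8 each), and its log2 fold change was 1.21 (SE 0.15).

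The VGLL proteins bind TEADs in place of YAP and TAZ. *Vgll3* was called higher (log2 fold change 6.88, SE 0.63) and *Vgll4*, a repressor of TEAD output, lower (-0.72, SE 0.10), at 134.2 ± 21.7 CPM in the size-selected and 220.9 ± 18.6 CPM in the whole spleen samples (SD, n = 8 each). *Vgll1* and *Vgll2* had 0 counts in all 16 samples.

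Of 20 genes known from other studies as targets of YAP and TAZ, 18 passed the filter, 14 were called higher and 1 lower, and the median log2 fold change was 2.09. Over all genes tested 37.5% were called higher and 30.4% lower, with a median of 0.05. Of the 18, 6 were below the filter's level in some whole spleen samples. The largest rises were *F3*, the coagulation tissue factor (7.05, SE 0.51), *Rbms3* (6.94, SE 0.33), *Igfbp3* (6.85, SE 0.58) and *Ccn1*, a matrix-associated protein listed in the table as Cyr61 (6.00, SE 0.41). *Ccn1* ran from 230.1 to 674.8 CPM in the size-selected samples and from 3.13 to 17.6 CPM in whole spleen, without overlap. *Nuak2* fell (-0.75, SE 0.13), and *Asap1*, *Nt5e* and *Dock5* were not called, with log2 fold changes of 0.30, 0.19 and 0.59 and edgeR adjusted p of 0.0613, 0.470 and 0.0573. With the number as a replicate block *Asap1* was called higher (log2 fold change 0.34, edgeR adjusted p = 0.0159), and it was higher in 8 of 8 pairs. *Ankrd1* was below the filter, with 0 to 10.9 counts per size-selected sample and 0 in every whole spleen sample, which makes it at least 10.1-fold higher against a floor of 3 counts over the group. *Foxf2* had 4 counts in all size-selected samples and none in whole spleen. Several of these genes are also known from fibroblasts, smooth muscle and endothelium, and the activity of the YAP and TAZ proteins was not measured.

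**Figure D4:**
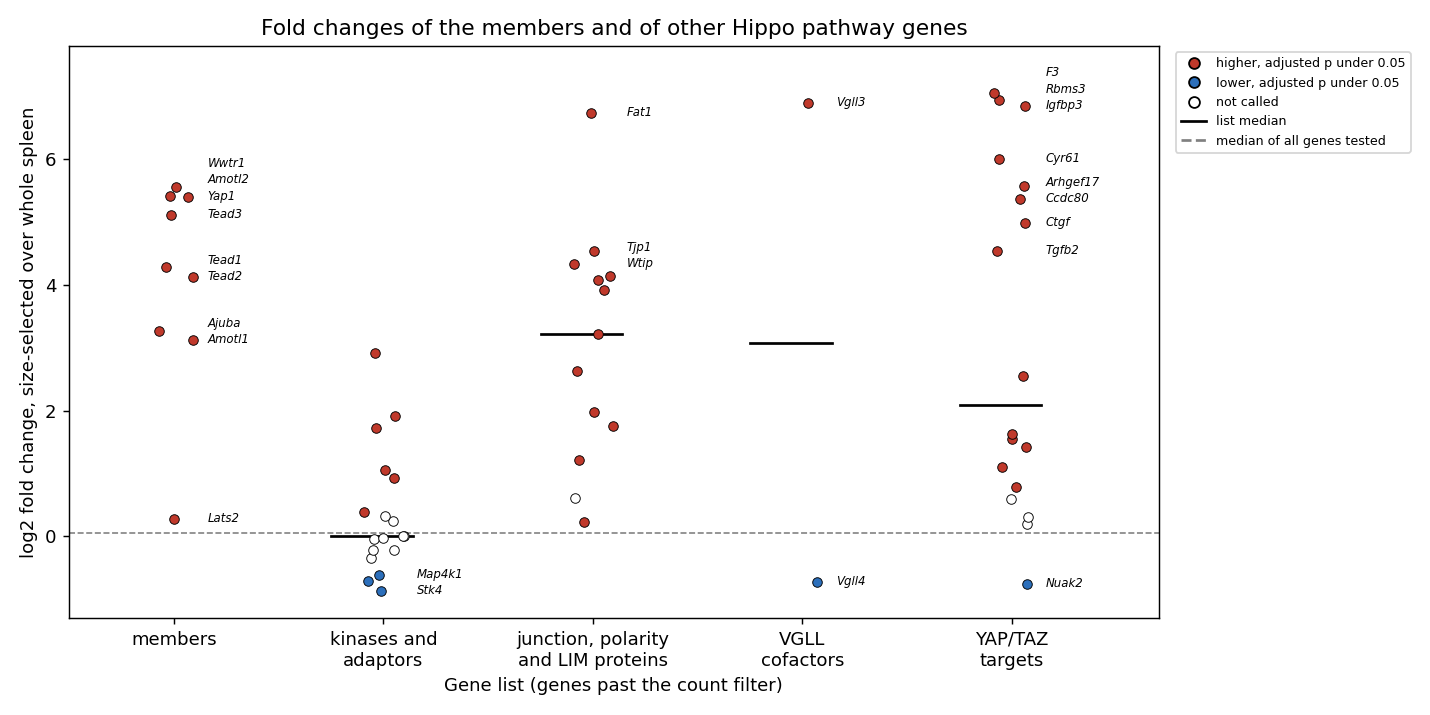
Each point is a gene past the count filter, with its gene list on the x axis and its log2 fold change (size-selected over whole spleen) on the y axis; red and blue points were called and white points were not, short lines are list medians and the dashed line is the median of all genes tested. The kinases spread around that line, with a median of 0.01, and the junction and LIM genes lie mostly above it, with a median of 3.21.

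Sex was the other label. In whole spleen only *Wwtr1*, *Amotl1*, *Amotl2* and *Lats2* passed the count filter of the sex comparison, and edgeR called none of these 4, with 26 genes called in all (0.194% of 13383). Without the filter none of the 10 members was called there either, and the lowest adjusted p was 0.128, for *Amotl2*. In the size-selected samples all 10 were tested and none was called, with 6 genes called in all (0.0397% of 15127). Nor was any member called for a fraction difference that differs between the sexes, where edgeR called 0% of 15760 genes and 744 had an unadjusted p under 0.05. In that interaction 9 of the 10 members had a larger fraction difference in females, as did 51.6% of all genes tested, and 4 had an unadjusted p under 0.05, as did 4.72% of all genes. These were *Amotl2* (2.13 on the log2 scale, SE 0.44, unadjusted p = 0.000171, adjusted p = 1.00), *Amotl1* (1.89, SE 0.54, unadjusted p = 0.00294), *Yap1* (2.32, SE 0.70, unadjusted p = 0.00446) and *Wwtr1* (1.05, SE 0.39, unadjusted p = 0.0157). DESeq2 called *Amotl2* in this interaction (2.17, adjusted p = 0.0236), 1 of 3 genes it called (0.0106% of 28203).

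Fitted within each sex, the fraction difference of *Yap1* was 6.71 in females and 4.32 in males, that of *Amotl2* 6.69 and 4.48, and that of *Amotl1* 4.25 and 2.29 (log2, all called by edgeR). For *Amotl2* and *Amotl1* the sexes were farther apart in whole spleen than after size selection. *Amotl2* lay between 1.48 and 3.01 CPM in the 4 male and between 0.257 and 1.29 CPM in the 4 female whole spleen samples, and *Amotl1* between 1.24 and 3.28 and between 0.392 and 1.28 CPM. Female *Amotl2* did not overlap male *Amotl2*, and for *Amotl1* the ranges overlapped slightly. The female minus male log2 differences were -1.73 (edgeR adjusted p = 0.145) and -1.58 (edgeR adjusted p = 0.155), and DESeq2 called *Amotl2* (-1.74, adjusted p = 0.0493), with 3.67% of 13365 genes called. In the size-selected samples *Amotl2* was at 54.1 ± 15.3 CPM in males and 71.0 ± 8.32 CPM in females (SD, n = 4 each), a log2 difference of 0.38 with an edgeR adjusted p of 0.999. Summed fibroblast markers in whole spleen lay between 12.9 and 57.6 CPM in males and between 5.02 and 22.7 CPM in females, and smooth muscle markers between 12.6 and 69.2 and between 8.36 and 27.7 CPM. Both upper ends in males came from sample 427. The next highest male was at 18.6 CPM for fibroblast and at 43.4 CPM for smooth muscle markers. The part of these markers in the sex values of the members was not tested.

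**Figure D5:**
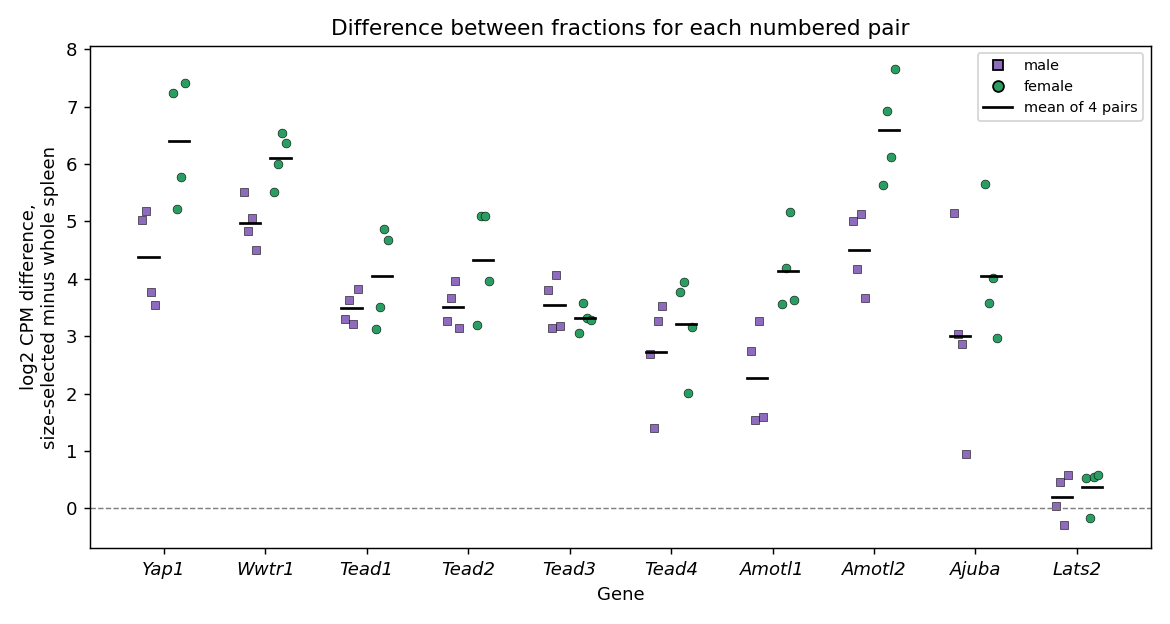
Each point is 1 numbered pair, with the gene on the x axis and the log2 CPM (prior count 2) of the size-selected sample minus that of whole spleen on the y axis; purple squares are male pairs, green circles female pairs and black lines their means. Every pair is above 0 except for *Lats2*, where 2 of 8 are below, and the female pairs of *Amotl2* all lie above the male pairs.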

How the data were processed

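RNA-seq of 16 mouse spleen samples was used. The submitters' processing notes name Trim Galore, STAR, RSEM, DESeq and the build mm10, with no versions. The deposited count table holds the authors' estimated counts per gene, as such in the whole spleen columns and multiplied by constants for 3898 genes in the size-selected columns. A table of the authors' comparison holds, per the file headers, their log2 fold changes, standard errors, p-values, 1 base mean signal per gene over the samples, a test score, and mean TPM and FPKM per group, of which FPKM was not analysed here.

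Estimated counts were rounded and tested with edgeR 4.0.16 (R 4.3.3), filterByExpr with a minimum count of 10, TMM scaling and the quasi-likelihood F test, with Benjamini-Hochberg adjusted p under 0.05 over all genes. The fraction and interaction fits used all 16 samples and the sex fits 8. Standard errors were obtained by dividing the log2 fold change by the root of its F statistic. CPM use TMM-scaled totals, and lengths and gene coordinates are from GENCODE M21 on GRCm38, which matched 54809 IDs. Deposited counts of TEAD paralogs are estimates that may share reads. Constants multiplying size-selected values were found from the values alone. Multiplied genes were found in all 8 size-selected columns and in no whole spleen column.

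Same-numbered samples deviated together (mean r across genes 0.208, from 0.120 to 0.376, against -0.0287 for different numbers), so the numbers pair the samples. The main fits and the main share tests did not use this pairing, and the replicate block is an alternative that does. Others were restored counts, DESeq2 1.42.0, limma-voom (limma 3.58.1), other scalings and filters, single sexes and leaving out each number. Fits were tested on simulated counts. The fraction fit recovered 100% of 199 changed genes among 13582 and also called 8 unchanged genes. The interaction fit recovered 70% of 200 among 13583, and 8 of its 148 calls were unchanged genes. With DESeq2 23 of 166 interaction calls were unchanged genes. For sex in whole spleen they were 28 of 226 calls with DESeq2 and 9 of 208 with edgeR. The simulation was modelled on genes with higher mean counts than *Tead3* and *Tead4*, with changes of a set size and no pairing. These rates need not carry over to the members.

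The members and lists were chosen with earlier results of these data known. Named genes are the members and, per list, the called genes with the 4 largest rises and falls and the genes not called. *Nf2* was added after its values were seen. Marker lists for T cells, neutrophils, erythroid cells, macrophages and megakaryocytes were also summed: 0 of 5, 0 of 5, 0 of 5, 3 of 4 and 4 of 4 genes were called higher, and 4, 5, 3, 0 and 0 lower. Of the 5 B cell markers 4 were called lower, and with the replicate block *Cd22*, the remaining one, was too (edgeR adjusted p = 0.0303). Counting intervals cover counting error only.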

Additional observations from a re-analysis of the deposited data

Results flagged for a closer look

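In 2 of the 29 groups screened, 1 sample stood apart from the other samples of its group (chance gives about 5% of groups). *Ajuba* in whole spleen was at 2.38 CPM in sample 435, where the other 7 samples lay between 0 and 0.979 CPM. The *Tead4* share of the TEAD sum in whole spleen was 41.8% in sample 408, from 2 counts of *Tead4* among 7 TEAD counts, and 0 in the other 6 samples that had any.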

How the results depend on the processing

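The members called higher numbered 8 to 10 over 20 other settings, and *Lats2* was the member whose call was lost. The replicate block changed no member's call (*Lats2* adjusted p = 0.0480 with the block), and with the block the interaction called 3 genes, none a member (*Amotl2* adjusted p = 0.494). Scaling by library totals put the median log2 fold change of all genes at 0.175 instead of 0.048. Kinases called higher numbered 6, and 4 (males only, or a fold change of 1 on the log2 scale) to 8 (library totals, restored counts) elsewhere; upstream genes called higher numbered 11 or 12, and targets 12 to 16 against 14. With the replicate block, kinases called higher were 7 and targets 15. Kinases called lower numbered 3, but 5 in females only, 1 in males only, and 0 when a fold change of 1 on the log2 scale was also asked for, as for targets called lower (0 against 1). DESeq2 called 1 member by sex in whole spleen and 1 for sex by fraction, where edgeR called 0. The difference in the *Tead1* share (0.0491 percentage points) changed sign on restored counts (-0.273), with the replicate block (-0.831) and over samples left out (-1.92 to 2.17). That in the *Wwtr1* share (0.169) changed sign with the longest transcript length (-0.0263), without whole spleen 427 (-1.09) and over samples left out (-1.16 to 1.57). Neither passed a test in any setting. Leaving out numbers moved the *Tead4* share difference between 5.29 and 13.2, the latter without 408. The cause was not tested. Depth limits the whole spleen values of *Tead1*, *Tead3* and *Tead4*, which rest on 20, 5 and 2 counts.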
